A study of Mus musculus with 12 samples.

Results

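The genes described here are 5 of the genes carried by the mitochondrial genome itself: ND1, ND2 and ND4 of complex I, CYTB of complex III and COX1 of complex IV. They were taken by symbol from the deposited table of gene results and found in the deposited count table, which holds 20620 genes. Messenger RNA was selected by poly-A from mouse aortic valves at postnatal day 10 and sequenced in 12 libraries, 4 per genotype, each a pool of 3 valves. The tested genotypes were Notch1+/-;Gata5-/-, labelled as lacking 1 copy of Notch1 and both copies of Gata5, and Notch1+/-;Gata5+/-, labelled as lacking 1 copy of each. Wildtype valves were the controls, so no group isolates either gene, and the Notch1 label is shared by both mutant groups. The labels do not give the strain, the sex or the design of the alleles. P-values of group comparisons set a difference against the spread between pools.

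The respiratory chain passes electrons from nutrients to oxygen through protein complexes of the inner mitochondrial membrane and pumps protons that drive ATP synthase. Most of its subunits come from nuclear genes, but a few hydrophobic core subunits are encoded by the mitochondrial genome. That genome is transcribed as long precursors from both strands, which are cut at the transfer RNAs into separate messengers and, for most of them, polyadenylated. Heart muscle is among the tissues richest in mitochondria.

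The ends of the 5 messengers are shown because they identify the transcripts and differ in their initiation and stop codons. Each line gives the first 30 bases of the GENCODE M21 transcript, 5′ to 3′, with the initiation codon in capitals. Only 3 of them begin with the standard ATG.
ND1 start: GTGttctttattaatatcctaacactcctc
ND2 start: ATAaatcctatcacccttgccatcatctac
ND4 start: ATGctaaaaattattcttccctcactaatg
COX1 start: ATGttcattaatcgttgattattctcaacc
CYTB start: ATGacaaacatacgaaaaacacacccatta

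The last 30 bases follow, with the stop codon, or what the gene holds of it, in capitals. ND4 and CYTB end after 459 and 381 full codons with a lone T. Textbook knowledge of mammalian mitochondria is that the poly-A tail completes such a stop codon. ND1, ND2 and COX1 carry a full stop codon as the last of 319, 346 and 515 codons.
ND1 end: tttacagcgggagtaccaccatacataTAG
ND2 end: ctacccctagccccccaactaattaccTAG
ND4 end: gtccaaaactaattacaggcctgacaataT
COX1 end: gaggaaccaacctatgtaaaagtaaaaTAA
CYTB end: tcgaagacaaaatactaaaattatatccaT

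All 5 genes lie on the same strand of the mitochondrial genome in GENCODE M21. Copies of mitochondrial sequence also lie in the nuclear genome, so each transcript was cut into windows of 100 bases and searched for in all nuclear GENCODE M21 transcripts, on both strands. No window of ND1 or CYTB was found there. The share found was 3.19% for ND2, 30.8% for COX1 and 60.8% for ND4. With windows of 50 bases it was 8.19% for ND2, 51.1% for COX1 and 62.2% for ND4, and still 0% for ND1 and CYTB. The COX1 windows matched Gm29216, Gm13340 or Gm11512, and the ND4 windows matched Gm28439, none of which is in the count table. The sources do not say how reads that match more than 1 place were counted, so these shared windows make the levels of COX1 and ND4 uncertain. Only annotated transcripts were searched, and copies in the rest of the nuclear genome were not looked for. The 0% of ND1 and CYTB therefore does not clear their levels of the same uncertainty. The other mitochondrially encoded protein genes in the count table were ND5 and ND6, with 0% of windows of 100 bases shared, and with 50 bases 7.61% for ND5 and 0% for ND6. COX2, COX3, ATP6, ATP8, ND3 and ND4L were not in the count table. Their shares of windows of 100 bases were 97.6% to 99.9%, except 0% for ATP8.

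The libraries held 13866604 to 25059653 counts. Gata5 had no count in the 4 Notch1+/-;Gata5-/- libraries, against 322 counts in the 4 Notch1+/-;Gata5+/- and 139 in the 4 wildtype libraries. Notch1 averaged 185 ± 29.5 CPM, the count scaled to the TMM-adjusted library size, in Notch1+/-;Gata5-/-, 172 ± 20.6 in Notch1+/-;Gata5+/- and 128 ± 26.4 in wildtype (SD, n = 4 each). A Notch1 allele can leave its transcript in place, so these counts do not check that label. Genes at 0 numbered 6000 in Notch1+/-;Gata5-/- replicate 3 and 3208 in wildtype replicate 2, while the remaining 10 libraries had 1017 to 2908. These 2 libraries also had the lowest mean rank correlation with the rest. Markers of valve interstitial cells were present throughout: all 11 had counts in every library. So did all 24 heart muscle markers.

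The 5 genes were abundant in every library, with 6347 to 219358 counts each. Counting error alone is 1.26% at the lowest of these counts, while the CPM of a gene varied by 21.1% to 38.1% between pools of a genotype. Together they took 1.24% ± 0.285 of all counts in Notch1+/-;Gata5-/-, 1.02% ± 0.239 in Notch1+/-;Gata5+/- and 0.879% ± 0.258 in wildtype valves (SD, n = 4 each).

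Levels were compared between genes per kilobase of transcript, as CPM per kb over all 12 libraries. COX1, the catalytic core subunit of cytochrome c oxidase, was highest at 3793 ± 1098 CPM per kb (SD, n = 12). CYTB, the haem-carrying cytochrome b of complex III, followed at 1608 ± 468. The complex I subunits came next, ND1 at 1164 ± 317, ND2 at 1031 ± 341 and ND4 at 478 ± 148. Across libraries the ranges of neighbours in this order overlapped, but within a library the order was the same in 12 of 12. The closest neighbours were ND1 and ND2, whose ratio was 1.03 to 1.46 with a median of 1.14. The place of ND4 changed with the scale. An alternative scale divides all counts of a gene by its unshared windows only, as if no read of a shared window was counted. Whether that holds is not given in the sources used here. Per 1000 windows that no nuclear transcript shares, a scale chosen after the data were seen, ND4 averaged 1313 ± 406 CPM, ND1 1299 ± 353 and ND2 1178 ± 389 (SD, n = 12). On that scale ND4 was above ND2 in all but 1 library, and ND1 was above ND4 in 5 of 12.

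**Figure D1:**
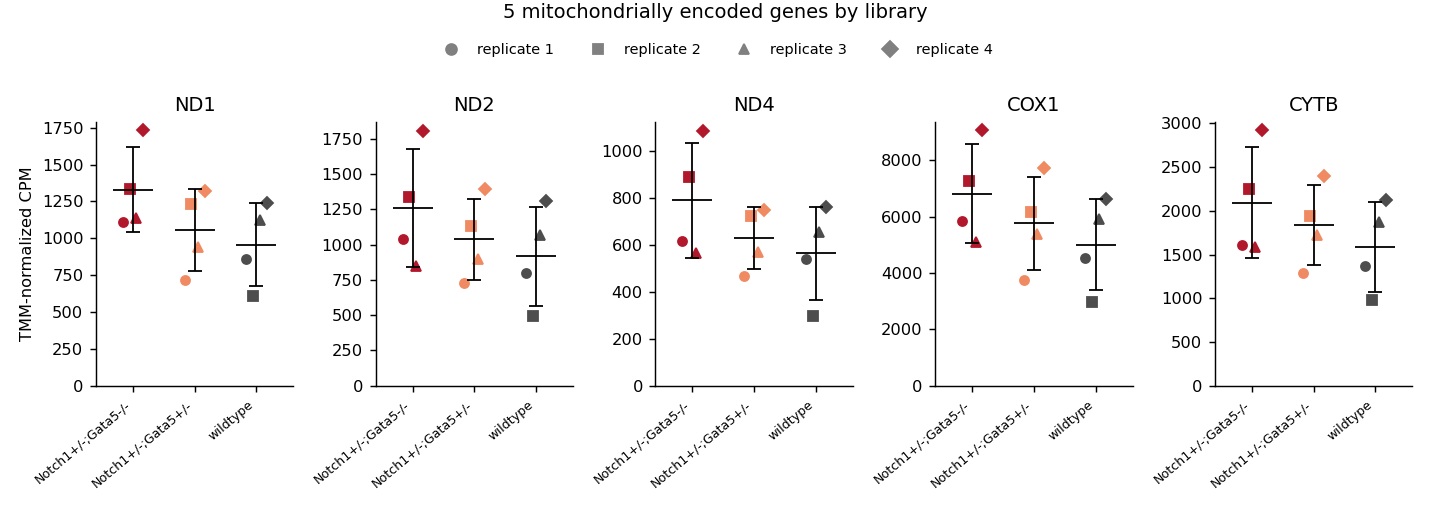
TMM-normalized CPM (y axis, starting at 0, one scale per gene) of the 5 genes in the 12 libraries, by genotype; marker shapes give the replicate number, and bars the mean and SD over 4 pools. Replicate 4 is the highest of its genotype in every panel, and the genotypes overlap in every panel.

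ND1, a complex I subunit of the membrane arm near its junction with the peripheral arm, had 1108, 1337, 1139 and 1735 CPM in Notch1+/-;Gata5-/- replicates 1 to 4. It had 720, 1234, 943 and 1323 CPM in Notch1+/-;Gata5+/- and 858, 611, 1123 and 1238 CPM in wildtype. The lowest of the first 4 lay below the 2 highest wildtype pools, so the groups overlapped. Pools of the same genotype differed up to 1.57-fold, 1.84-fold and 2.02-fold, in the same order of genotypes.

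ND2, a proton-pumping subunit of the membrane arm of complex I, had 1039, 1338, 847 and 1805 CPM in Notch1+/-;Gata5-/- valves. Its values were 730.0, 1131, 897 and 1391 CPM in Notch1+/-;Gata5+/- and 800.2, 495, 1065 and 1306 CPM in wildtype valves. Wildtype replicate 2 was the lowest of the 12 libraries. ND4, a related proton-pumping subunit, had 614, 890, 564 and 1084 CPM in Notch1+/-;Gata5-/-. It had 468, 722, 571 and 748 CPM in Notch1+/-;Gata5+/- and 538, 298, 654 and 761 CPM in wildtype. Wildtype replicate 2 was again the lowest library.

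COX1 had 5826, 7264, 5110 and 9060 CPM in Notch1+/-;Gata5-/-, 3752, 6171, 5383 and 7734 CPM in Notch1+/-;Gata5+/-, and 4544, 2973, 5903 and 6604 CPM in wildtype. CYTB had 1606, 2253, 1592 and 2924 CPM in Notch1+/-;Gata5-/-, 1294, 1943, 1719 and 2402 CPM in Notch1+/-;Gata5+/-, and 1365, 978, 1871 and 2123 CPM in wildtype. The same libraries stood at the ends for each gene. Replicate 4 was the highest of every genotype for all 5 genes, wildtype replicate 2 and Notch1+/-;Gata5+/- replicate 1 were the lowest of theirs, and Notch1+/-;Gata5-/- replicate 3 was the lowest of its genotype for all but ND1, for which replicate 1 was. The spread between pools, as a coefficient of variation per gene, was 0.247 to 0.326 in the edgeR model, against 0.181 to 0.192 on its trend for genes of like abundance.

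The comparison of Notch1+/-;Gata5-/- with wildtype asks what differs when both labels differ. All 5 genes had a higher mean in the mutant valves, and none passed the test. Mean levels were 1330 ± 288 CPM against 957 ± 280 CPM for ND1, 1257 ± 417 against 917 ± 349 for ND2 and 788 ± 244 against 563 ± 199 for ND4. For COX1 they were 6815 ± 1744 CPM against 5006 ± 1603 CPM, and for CYTB 2094 ± 633 against 1584 ± 512 (SD, n = 4 each). The edgeR log2 fold changes were 0.47 for ND1 (95% interval -0.056 to 1.004), 0.46 for ND2 (-0.29 to 1.20), 0.49 for ND4 (-0.18 to 1.15), 0.45 for COX1 (-0.20 to 1.09) and 0.40 for CYTB (-0.23 to 1.03). Each had an adjusted p of 0.9997 by Benjamini-Hochberg over the 19346 genes tested. The intervals leave room for no difference and for more than a doubling. In this comparison 0 of 5 genes were called, against 0.0258% of all genes tested, and 0 of 5 had an unadjusted p under 0.05, against 5.4%. ND1 came closest, with an unadjusted p of 0.0753, and 7.45% of all genes tested had a smaller one. The CPM of 0 of 5 genes lay wholly above wildtype, against 0.936% of all genes tested, and 0 of 5 wholly below, against 1.99%. DESeq2 called 0 of 5 as well, against 0.228% of genes. In the authors' deposited table, whose log2 fold changes match this comparison, the values were 0.50 for ND1, 0.48 for ND2, 0.51 for ND4, 0.47 for COX1 and 0.43 for CYTB. None of the 5 is marked as changed in the authors' deposited table, against 33 of all 13959 genes there. The lowest DESeq2 adjusted p among the 5 in that table is 0.766.

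The fold changes moved by over 1.5 times with single libraries. They were 0.20 to 0.68 over the fits that left out 1 library, lowest without Notch1+/-;Gata5-/- replicate 4 (ND1, ND2 and CYTB) or wildtype replicate 2 (ND4 and COX1) and highest without wildtype replicate 4. Without both libraries that stand apart they were 0.35 to 0.41.

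**Figure D2:**
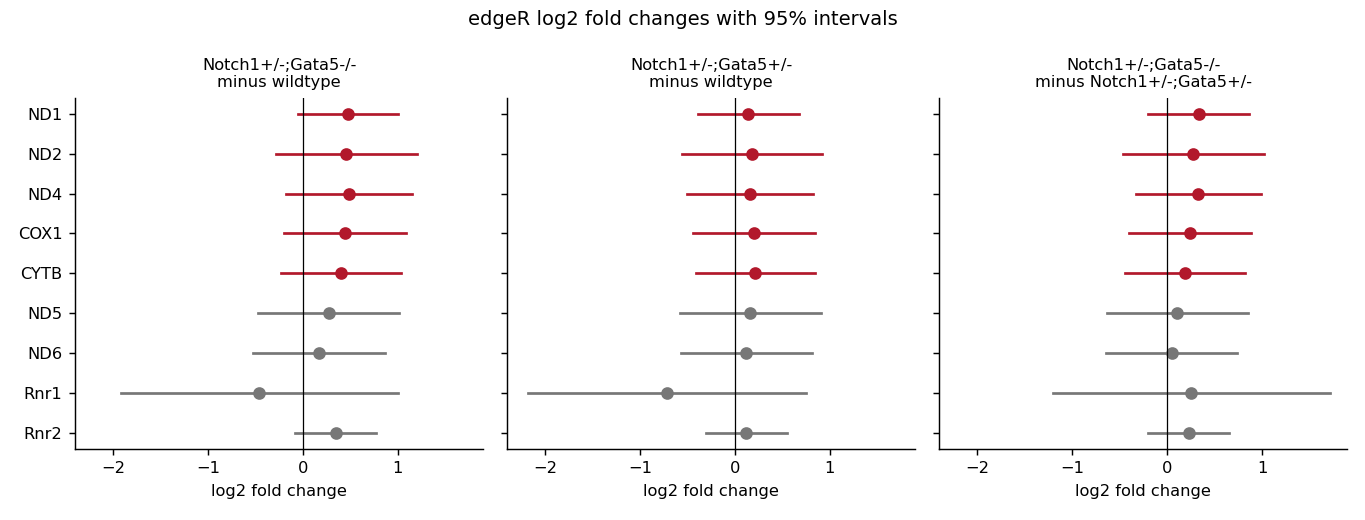
edgeR log2 fold changes (x axis) with 95% intervals for the 5 genes (red) and the other 4 mitochondrially encoded genes in the count table (grey), in the 3 comparisons. Every interval of the 5 genes includes 0, and their points lie between 0.14 and 0.49.

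Against wildtype, Notch1+/-;Gata5+/- valves had log2 fold changes of 0.14 for ND1, 0.18 for ND2, 0.16 for ND4, 0.20 for COX1 and 0.22 for CYTB. Mean levels were, for example, 1055 ± 276 CPM against 957 ± 280 CPM for ND1 and 5760 ± 1657 against 5006 ± 1603 for COX1 (SD, n = 4 each). The intervals spanned -0.56 to 0.92 over the 5 genes. Wholly above wildtype lay 0 of 5 genes, against 1.32% of all genes tested, and wholly below 0 of 5, against 0.915%. edgeR called 0 of 5 genes here and 0.0% of all genes tested, while 242 genes (1.25%) had an unadjusted p under 0.05, none of them among the 5, and DESeq2 called 6 genes (0.0291%). Without wildtype replicate 2 the values of ND1, ND2 and ND4 were -0.03, -0.03 and -0.06, so their direction rested on that library, and those of COX1 and CYTB were 0.02 and 0.04.

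Notch1+/-;Gata5-/- against Notch1+/-;Gata5+/- compares genotypes that share the Notch1 label and differ in the second Gata5 copy. The log2 fold changes were 0.33 for ND1, 0.28 for ND2, 0.33 for ND4, 0.24 for COX1 and 0.19 for CYTB, with intervals that spanned -0.46 to 1.02. Wholly above Notch1+/-;Gata5+/- lay 0 of 5 genes, against 0.703% of all genes tested, and wholly below 0 of 5, against 2.03%. edgeR called 0 of 5 genes and 0.0% of all genes, 616 genes (3.18%) had an unadjusted p under 0.05, none of them among the 5, and DESeq2 called 7 genes (0.0339%). Without Notch1+/-;Gata5-/- replicate 4 the values were 0.18 for ND1, 0.05 for ND2, 0.13 for ND4, 0.07 for COX1 and -0.02 for CYTB. The 3 comparisons share groups, so their values for a gene are not independent.

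The share of all counts in the 5 genes gives the same picture without a model. It was 1.07%, 1.33%, 0.969% and 1.60% in Notch1+/-;Gata5-/- replicates 1 to 4. It was 0.739%, 1.11%, 0.936% and 1.30% in Notch1+/-;Gata5+/- and 0.812%, 0.546%, 1.04% and 1.12% in wildtype. The groups overlapped. The difference between Notch1+/-;Gata5-/- and wildtype was 0.366 percentage points (two-sided exact permutation p = 0.143, where 0.0286 is the smallest this design can give). It was 0.141 points between Notch1+/-;Gata5+/- and wildtype (exact permutation p = 0.457) and 0.225 points between the mutant groups (exact permutation p = 0.257). Single libraries moved both: the 0.141 points were 0.0296 without wildtype replicate 2 and 0.234 without Notch1+/-;Gata5+/- replicate 1, and the 0.225 points were 0.105 without Notch1+/-;Gata5-/- replicate 4.

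The 5 genes kept nearly fixed proportions to each other while their summed level varied. COX1 took 53.9% to 57.2% of the counts in the 5 genes, CYTB 15.8% to 18.6%, ND1 9.73% to 12.3%, ND2 9.16% to 10.9% and ND4 5.50% to 6.80%. Over the same libraries the CPM of COX1 ranged from 2973 to 9060 and that of ND4 from 298 to 1084. Each gene was then taken relative to the geometric mean of the 5, a measure that library size and the amount of mitochondrial RNA do not enter. Of the 15 comparisons of this measure between genotypes none passed an exact permutation test after correction (lowest adjusted p = 0.949). The smallest exact p this design can give is 0.0286, so a difference in only a few of the 15 could not have passed. The widest difference was that of CYTB between the mutant groups, 0.22 ± 0.05 in Notch1+/-;Gata5-/- and 0.31 ± 0.05 in Notch1+/-;Gata5+/- on the log2 scale (SD, n = 4 each, difference -0.09, exact permutation p = 0.0857, adjusted p = 0.949). Over the 12 libraries the log2 CPM of every pair correlated, with Pearson's r of 0.959 to 0.987 and Spearman's rho of 0.944 to 1.0 over 10 pairs. The highest permutation p of r was 2e-05, with an adjusted p of 3.2e-05 over 16 relations, and 1e-05 is the smallest these permutations can give. With the 2 libraries farthest from the median left out, r was 0.924 to 0.981, and with group means removed it was 0.951 to 0.985. Each pair shares its libraries, its scaling and its precursor transcripts.

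**Figure D3:**
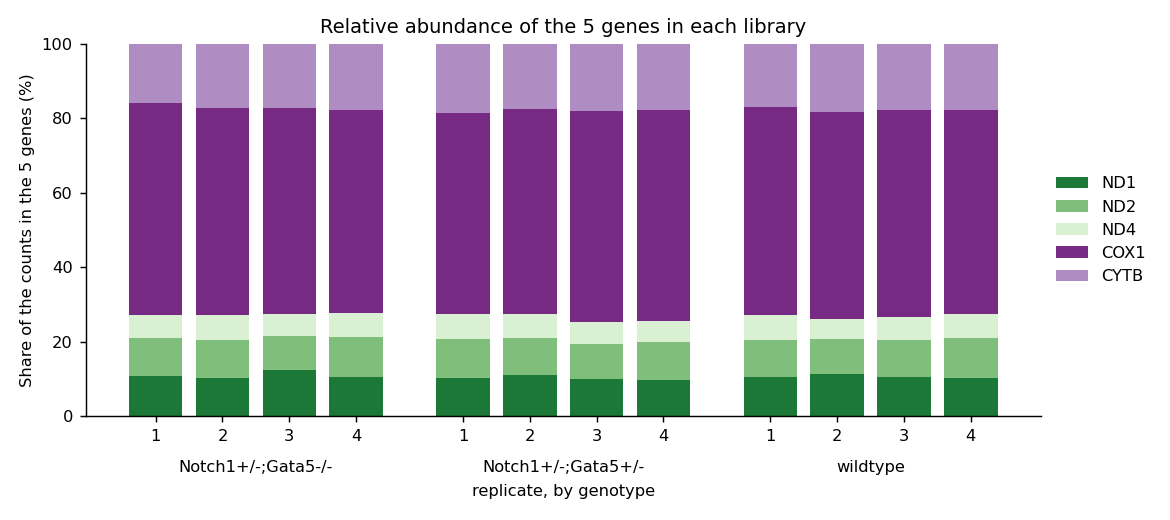
Share of the counts in the 5 genes (y axis, percent) taken by each gene in the 12 libraries, grouped by genotype. COX1 takes 53.9% to 57.2% in every library and the bars differ little between genotypes.

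The other mitochondrially encoded genes were ND5, ND6 and the ribosomal RNAs Rnr1 and Rnr2. None was called by edgeR in any comparison, against at most 0.0258% of all genes tested. ND5, a further proton-pumping subunit of complex I, lies on the strand of the 5 genes. ND6, also of complex I, is the only protein gene on the opposite strand, and in human cells its messenger is known to lack a poly-A tail. ND5 and ND6 overlap at their ends, and the strand setting of the counting is not given in the sources used here, so reads of either could be counted for its neighbour. Against wildtype, the Notch1+/-;Gata5-/- log2 fold changes were 0.27 for ND5 (95% interval -0.47 to 1.01) and 0.17 for ND6 (-0.53 to 0.86), below those of all 5 genes.

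The ratio of the 5 genes to ND6 was examined after these values were seen. On the log2 scale it was 0.84, 0.56, 0.37 and 0.42 in Notch1+/-;Gata5-/- replicates 1 to 4, 0.15, 0.39, 0.40 and 0.23 in Notch1+/-;Gata5+/- and 0.24, 0.26, 0.21 and 0.26 in wildtype. All 4 pools of the first genotype lay above all 4 wildtype pools, which lay close together. The difference was 0.31 (exact permutation p = 0.0286, adjusted p = 0.343 over 12 ratios). That p is the smallest this design can give, so a lone ratio could not have passed the correction, whatever its size. Against Notch1+/-;Gata5+/- the difference was 0.25 (exact permutation p = 0.114, adjusted p = 0.514). For ND5 the ratio was -0.63, -0.82, -1.05 and -1.06 in Notch1+/-;Gata5-/-, -1.19, -0.93, -1.08 and -1.15 in Notch1+/-;Gata5+/- and -1.03, -1.03, -1.11 and -1.16 in wildtype. Those groups overlapped (difference from wildtype 0.19, exact permutation p = 0.171, adjusted p = 0.514). Without Notch1+/-;Gata5-/- replicate 1 the differences were smaller. For ND6 they were then 0.21 from wildtype and 0.16 from Notch1+/-;Gata5+/-, and for ND5 0.10 from wildtype.

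**Figure D4:**
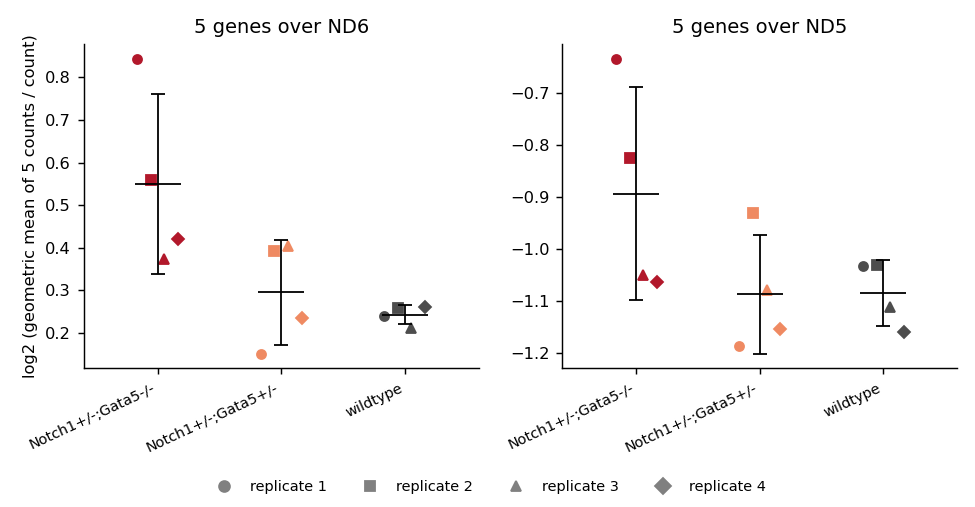
Log2 ratio of the geometric mean count of the 5 genes to the count of ND6 (left) and ND5 (right) in each library, by genotype, with the mean and SD over 4 pools; the axes do not start at 0. For ND6 the Notch1+/-;Gata5-/- pools lie at 0.37 to 0.84 and the wildtype pools at 0.21 to 0.26.

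Of the ribosomal RNAs, Rnr1 departed from the 5 genes in some libraries. Rnr1 had 1612, 1949, 1619 and 1871 CPM in Notch1+/-;Gata5-/-, 1261, 1903, 1715 and 1021 CPM in Notch1+/-;Gata5+/- and 1792, 605, 6399 and 899 CPM in wildtype. Its value in wildtype replicate 3 was more than 3 times that of any other library, while the 5 genes of that library were within the range of the others. The libraries were selected by poly-A, and how much ribosomal RNA each kept is not given. The values of Rnr1 and Rnr2 therefore need not reflect their amounts in the tissue. Replicate 4, the highest of each genotype for the 5 genes, was the lowest for Rnr1 in Notch1+/-;Gata5+/-. Wildtype replicate 2, however, was the lowest library for Rnr1, as for the 5 genes. Rnr2 averaged 12322 ± 1847 CPM in Notch1+/-;Gata5-/-, 10534 ± 1335 in Notch1+/-;Gata5+/- and 9708 ± 3145 in wildtype (SD, n = 4 each). It had 9890, 14242, 13082 and 12072 CPM in Notch1+/-;Gata5-/- replicates 1 to 4. In Notch1+/-;Gata5+/- it had 9036, 12229, 10111 and 10762 CPM, and in wildtype 10992, 6135, 13365 and 8339 CPM. Its lowest library was wildtype replicate 2, as for the 5 genes, but replicate 4 was not its highest in any genotype. Correlation of Rnr1 or Rnr2 with the 5 genes was not tested.

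The nuclear genes of the same machinery were described from lists. None of 82 nuclear-encoded subunits of complexes I to V was called by edgeR in any comparison. Of all genes tested it called 0.0258% in Notch1+/-;Gata5-/- against wildtype and 0.0% in the others, so calls among the subunits were hardly possible. In Notch1+/-;Gata5-/- against wildtype 57 of the 82 had a positive log2 fold change (median 0.08), beside 8911 of 19346 positive and a median of -0.03 over all genes tested. By complex, 23 of 37 subunits of complex I were positive (median 0.05), 3 of 4 of complex II (0.06), which has no mitochondrially encoded subunit, 7 of 9 of complex III (0.11), 12 of 16 of complex IV (0.14) and 12 of 16 of complex V (0.07). The 5 mitochondrially encoded genes had a median of 0.46. Among the subunits with the smallest p, complex I had Ndufa7 at -0.60, Ndufa3 at 0.33 and Ndufb4 at 0.52. Complex II had Sdha at 0.10, Sdhb at -0.08 and Sdhd at 0.06, and complex III had Uqcrb at 0.31, Uqcr10 at 0.46 and the core protein Uqcrc2 at 0.20. Complex IV had Cox6a1 at -0.52, Cox7a2 at 0.40 and Cox6b1 at 0.36, and complex V had Atp5mc2, a subunit of the rotor ring, at 0.37, Atp5f1c at 0.31 and Atp5me at -0.26. In this comparison no subunit had an adjusted p under 0.994 by edgeR. Against wildtype, Notch1+/-;Gata5+/- valves had 33 of 82 positive (median -0.02), beside 9730 of 19346 genes tested (median 0.00). Notch1+/-;Gata5-/- against Notch1+/-;Gata5+/- had 63 of 82 positive (median 0.11), beside 8618 of 19346 (median -0.04). There 3 of the 82 had an unadjusted p under 0.05, against 3.18% of all genes tested, and they were Ndufa2 at 0.59, Ndufa3 at 0.47 and Atp5mc2 at 0.43 (edgeR adjusted p = 1 each).

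None of 107 genes that maintain, transcribe, process or translate mitochondrial DNA and RNA, assemble the complexes or regulate their biogenesis was called in any comparison. edgeR called 0.0258% of all genes tested in Notch1+/-;Gata5-/- against wildtype and 0.0% in the others. In Notch1+/-;Gata5-/- against wildtype 57 of the 107 were positive (median 0.04). An unadjusted p under 0.05 was found for 2 of the 107, against 5.4% of all genes tested. Those with the smallest p in the RNA processing list were Fastkd1, of a family of mitochondrial RNA-binding proteins, at 1.13 (SE 0.35, edgeR adjusted p = 0.738), and Trmt10c, a subunit of mitochondrial RNase P that frees messengers from precursors, at 0.53 (SE 0.23, edgeR adjusted p = 0.860). The RNA-degrading enzyme Pnpt1 was at 0.46. In the transcription list the mitochondrial RNA polymerase Polrmt was at 0.46, with Mterf4 at 0.51 and Mterf2 at -1.001 (edgeR adjusted p = 0.9997 each). The DNA maintenance list had the nucleoside kinase Dguok at 0.45, the exonuclease Mgme1 at 0.78 and the fusion protein Opa1 at 0.15. In the translation list the membrane insertase Oxa1l was at -0.37, with the elongation factor Tsfm at -0.43 and the initiation factor Mtif2 at -0.21. The assembly list had Cox16 at -0.55, Tmem126b at 0.36 and Coa7 at 0.42. The biogenesis list had Yy1 at -0.29 and the nuclear receptors Ppara at 0.40 and Esrrg at 0.30.

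The 5 genes moved with heart muscle markers across libraries. The mean log2 CPM of the 5 correlated with the mean log2 CPM of 24 heart muscle markers with Pearson's r = 0.908 (permutation p = 7e-05, adjusted p = 0.000102) and Spearman's rho = 0.853 (permutation p = 0.0009, adjusted p = 0.00131) over 12 libraries. Without wildtype replicate 2 and Notch1+/-;Gata5+/- replicate 1, the 2 farthest from the median in heart markers, r was 0.757, and with group means removed it was 0.927. The summed level of the 24 markers was 46892 to 66820 CPM in Notch1+/-;Gata5-/-, 35043 to 68560 CPM in Notch1+/-;Gata5+/- and 28121 to 62257 CPM in wildtype. Wildtype replicate 2 was lowest on both scales. Group means of this sum were 55313 ± 9538 CPM in Notch1+/-;Gata5-/- and 49888 ± 14992 CPM in wildtype (SD, n = 4 each, exact permutation p = 0.657). No marker was at 0 in any library, and Ttn, the giant elastic protein of the sarcomere, ranged from 13188 to 26959 CPM. In bulk samples more cells of a type and more RNA per cell cannot be told apart. With the heart muscle score as a covariate, the log2 fold changes of Notch1+/-;Gata5-/- against wildtype were 0.31 for ND1, 0.26 for ND2, 0.31 for ND4, 0.27 for COX1 and 0.22 for CYTB, with edgeR adjusted p of 0.779 to 0.946. Unadjusted, these edgeR p-values were 0.0101 to 0.0866, and the share of all genes with such values in that fit was not computed. In that fit edgeR called 7 of 19346 genes in this comparison, none of them among the 5. The score includes heart isoforms of complex IV subunits.

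**Figure D5:**
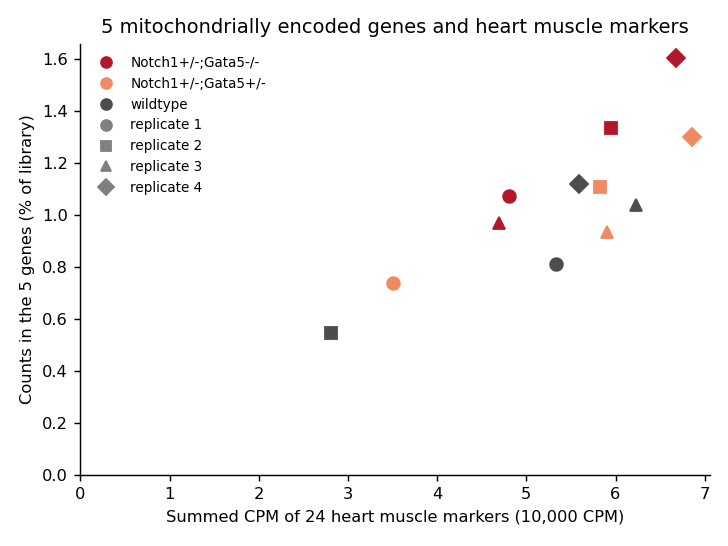
Percent of counts in the 5 genes (y axis) against the summed CPM of 24 heart muscle markers (x axis), both axes starting at 0; each point is a library, coloured by genotype and shaped by replicate number. Wildtype replicate 2 is lowest on both axes.

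Brown fat, another tissue rich in mitochondria, was followed by 7 markers. They summed to 251 to 379 CPM in Notch1+/-;Gata5-/-, 250 to 395 CPM in Notch1+/-;Gata5+/- and 236 to 435 CPM in wildtype, and most of this came from Prdm16, Ppargc1a and Cox8b, which heart muscle also expresses. Ucp1, the uncoupling protein that defines brown fat, was at 0 in 1 library and reached 42.7 CPM in another, with a median of 2.67 CPM. The part of these cells in the levels of the 5 genes was not tested. Valve interstitial markers summed to 30407 to 34581 CPM in Notch1+/-;Gata5-/-, 30729 to 36618 CPM in Notch1+/-;Gata5+/- and 27752 to 35617 CPM in wildtype. The 10 smooth muscle markers summed to 3948 to 5329 CPM in Notch1+/-;Gata5-/-, 5213 to 5974 CPM in Notch1+/-;Gata5+/- and 5795 to 7734 CPM in wildtype. edgeR called 4 of them lower in Notch1+/-;Gata5-/- than in wildtype, against 0.0258% of all genes tested, and called no gene when only the 8 libraries compared were fitted.

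The 5 genes also moved with the nuclear-encoded subunits, heart isoforms left out (r = 0.844, permutation p = 0.00052, adjusted p = 0.000693, and rho = 0.797, permutation p = 0.00316, adjusted p = 0.00421). Without wildtype replicates 2 and 3 r was 0.814. Relations that did not pass were those with the DNA maintenance list (r = 0.186, permutation p = 0.567, adjusted p = 0.605, and rho = 0.259, permutation p = 0.417), and with the transcription list (r = 0.470, permutation p = 0.127, adjusted p = 0.156, and rho = 0.329, permutation p = 0.295). Total counts, on a log2 scale, had r = 0.221 (permutation p = 0.489, adjusted p = 0.559) and rho = 0.392 (permutation p = 0.210), and r was 0.654 without Notch1+/-;Gata5-/- replicates 2 and 3. The number of genes at 0 had r = -0.120 (permutation p = 0.684) and rho = 0.105 (permutation p = 0.750), and r was 0.504 without the 2 libraries that stand apart. For these 4 measures, in the order given, r with the 2 farthest libraries left out was 0.143, 0.056, 0.654 and 0.504, and with group means removed it was 0.453, 0.654, 0.438 and -0.437.

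Of 9681 named nuclear genes with a mean log2 CPM of at least 3, the 8 with the highest r to the mean log2 CPM of the 5 genes over 12 libraries are given here. Pdk1, a kinase that inhibits pyruvate dehydrogenase, had r = 0.954. Acaa2, the last enzyme of a mitochondrial fatty acid oxidation cycle, had r = 0.943, and Eci1, an isomerase needed for unsaturated fatty acids, r = 0.936. Etfa, a subunit of the flavoprotein that carries electrons from fatty acid oxidation to the respiratory chain, had r = 0.929, and the glycolytic enzyme Pgk1 r = 0.930. The others were Txlnb (r = 0.943), the heart kinase Tnni3k (r = 0.938) and the myosin light chain Myl3 (r = 0.934). At the other end were Zcchc2 (r = -0.884), the nuclear anchoring protein Akap8l (r = -0.870), the cell surface proteoglycan Sdc1 (r = -0.869) and the corepressor Tle1 (r = -0.861). These genes were chosen by r from all genes compared, so r is a description. The median r was 0.85 over the 24 heart muscle markers, 0.70 over 36 complex I subunits, 0.77 over 15 of complex IV, -0.18 over the 11 valve interstitial markers, -0.27 over the 10 smooth muscle markers and 0.08 over all genes compared.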

How the data were processed

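Trimming with Trim Galore, alignment by STAR 2.7.10b against GRCm39 and use of DESeq2 1.34.0 are named in the submitters' processing notes. How reads were counted, with which annotation, strand setting and rule for reads with several matches, is not given in the sources used here. Raw counts per gene were deposited by the authors. Per the file headers, the authors' second table holds DESeq2 output: normalized signal averaged over libraries, log2 fold changes, their standard errors and Wald statistics as scores, and p-values. Its log2 fold changes matched a refit of Notch1+/-;Gata5-/- against wildtype to within 4.571e-08 for 13959 genes.

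With edgeR 4.0.16 in R 4.3.3, 19346 genes passed filterByExpr. After TMM scaling, 1 robust quasi-likelihood fit covered the 3 genotypes. Calls needed a Benjamini-Hochberg adjusted p under 0.05, and an SE is the size of the fold change over the square root of F. Shares and ratios were compared by two-sided exact permutation over all assignments of 8 libraries to 2 groups, and correlations by 100000 permutations. DESeq2 1.42.0 and limma 3.58.1 served as alternatives. The fits were tested on simulated data.

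Symbols came from the deposited table (13959) and from GENCODE M21 (6077), which is of an older build and gave names, strands and transcript sequences but no coordinates, and 584 genes had none. The genes and lists were chosen with earlier results of these data known. Genes named are the 5, up to 3 per mitochondrial list by smallest p in the comparison of that table, and 8 and 4 genes by highest and lowest r. Ttn, Ucp1, Prdm16, Ppargc1a and Cox8b were named after their values were seen. Over all genes, libraries that share a replicate number did not deviate together, so numbers were not used to pair them, although replicate 4 was the highest of each genotype for the 5 genes.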

Additional observations from a re-analysis of the deposited data

Results flagged for a closer look

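In 57 groups of 4 libraries the distance of the highest and lowest library from its nearest neighbour was compared with the range of the group, and 3 stood out, where chance gives about 1 in 20 groups. ND1 relative to the geometric mean of the 5 genes was -0.42 on the log2 scale in Notch1+/-;Gata5+/- replicate 2, against -0.52 to -0.53 in the other 3 libraries. CYTB relative to the same mean was 0.14 in Notch1+/-;Gata5-/- replicate 1, against 0.23 to 0.25 in the others. The log2 ratio of the 5 genes to Rnr1 was 0.91 in Notch1+/-;Gata5+/- replicate 4, against -0.35 to -0.21 in the others.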

How the results depend on the processing

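No alternative called any of the 5 genes in any comparison. Over all alternatives the log2 fold changes were 0.20 to 0.68 for Notch1+/-;Gata5-/- against wildtype, -0.06 to 0.40 for Notch1+/-;Gata5+/- against wildtype and -0.02 to 0.47 between the mutant genotypes. Of these values 368 kept their sign and 7 changed it. All 7 came from fits that left out wildtype replicate 2 or Notch1+/-;Gata5-/- replicate 4, and why these libraries differ was not tested. Leaving out 1 library at a time gave, in the second of these comparisons, -0.025 to 0.29 for ND1, -0.029 to 0.40 for ND2 and -0.056 to 0.34 for ND4, and in the third -0.020 to 0.34 for CYTB. Without both libraries that stand apart the second comparison gave -0.025, -0.029 and -0.056 for ND1, ND2 and ND4. All 39 alternatives for the share of counts kept its direction, but without 1 library the difference ranged from 0.246 to 0.458 points in the first comparison, 0.0296 to 0.234 in the second and 0.105 to 0.318 in the third. Relative abundances among the 5 genes lay near 0 and changed sign in 26 values and kept it in 169. Leaving out 1 library at a time, in the first comparison they were -0.036 to 0.061 for ND1, -0.022 to 0.053 for ND2, -0.0044 to 0.071 for ND4 and -0.027 to 0.011 for COX1. In the second they were -0.014 to 0.050 for ND2, -0.039 to 0.043 for ND4 and -0.016 to 0.037 for COX1. In the third they were -0.036 to 0.038 for ND2, -0.0063 to 0.063 for ND4 and -0.042 to 0.011 for COX1. Without both libraries that stand apart they were 0.0045 for COX1 in the first, -0.014 for ND2 and -0.039 for ND4 in the second, and 0.038 for ND2 in the third. Without these libraries r was -0.0929 for DNA maintenance and 0.504 for genes at 0. On unshared windows, chosen after the data were seen, the median log2 ratio was -0.025 for ND1 over ND4, -0.18 for ND2 over ND4 and 1.73 for COX1 over CYTB. Of the ratios to ND5 and ND6, left out library by library after the data were seen, the one to ND5 in the second comparison, -0.0032 with all libraries, ranged from -0.056 to 0.030 and changed sign in 4 of 8 cases. In the first comparison the number of genes edgeR called was 5, against 47 with DESeq2, 2 without wildtype replicate 2, 21 without Notch1+/-;Gata5-/- replicate 4 and 0 with only the 8 libraries compared.

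Over all genes, replicate numbers did not pair the libraries: same-numbered libraries correlated in their deviations at -0.033 to 0.095, although replicate 4 was the highest of each genotype for the 5 genes. With the replicate number as a block, log2 fold changes in the first comparison were 0.47 for ND1, 0.45 for ND2, 0.47 for ND4, 0.45 for COX1 and 0.40 for CYTB, with edgeR adjusted p of 0.924 to 0.985, and 7 genes were called. The differences in share, 0.366, 0.141 and 0.225 percentage points, had sign-flip p of 0.25, 0.5 and 0.125 (exact permutation), where 0.125 is the smallest that 4 pairs can give, so none could pass. Counting error of the 5 genes is small at these depths, and larger for scarce genes of the lists. The number of pools, the missing counting rules and the nuclear copies of COX1 and ND4 limit the values.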
